A study of Mus musculus with 9 samples.

Results

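Genes that mark T, NK and B lymphocytes, together with immune checkpoint genes, were followed through the liver RNA-seq data of mice with and without Scd2 in Col1a1-expressing cells. The 37 genes were chosen by name, from what they are known to mark, but with earlier results of these data known. Of these, 33 were analysed among the 16755 genes of the table. Klrd1, Ncr1, Tbx21 and Ctla4 were not analysed here. Liver from 9 male C57BL/6 mice was sequenced, 3 in each of 3 groups, and every mouse carried Scd2f/f, in which loxP sites flank the third exon of Scd2. In Scd2f/f;CC mice (Scd2f/f;Col1a1-Cre), Cre under the Col1a1 promoter removes Scd2 from Col1a1-expressing cells, which are activated hepatic stellate cells (aHSC) and portal fibroblasts and not lymphocytes. Scd2f/f;CC and Scd2f/f mice were injected with the carcinogen diethyl nitrosamine (DEN) at 10 mg/kg when 2 weeks old and received Western alcohol diet (WAD) from the age of 6 weeks, for 4 months as labelled. The methods of the paper name a longer feeding time. Their tissue is called tumor-adjacent liver (TAL) here, as in the results of the paper, although its RNA methods name it NTL and the labels liver tissue. The third group is liver of untreated Scd2f/f mice (control liver), a group taken from titles and treatment labels because the protocol text attached to these mice repeats the DEN and WAD regimen, and their age is not given.

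Each gene has 1 value per group, a least-squares mean of read counts normalized to the upper quartile, and all values below are these deposited means or quotients of them. No value per mouse was used, so the spread between the 3 mice of a group is unknown and no difference below was tested against it. The depth of each library is unknown too. The lowest mean in the table recurred for 118 genes in control liver (0.04), 107 in Scd2f/f TAL (0.0348) and 151 (0.0349) in the Scd2f/f;CC group, and it marks the lower end of the scale. Hepatocyte markers were abundant in all 3 groups, with Alb at 21300, 20900 and 22700 in control liver, Scd2f/f TAL and Scd2f/f;CC TAL. Scd2, the targeted gene, had means of 2.46, 6.47 and 1.87, and every set of 3 values below is in this order.

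T lymphocytes recognise antigen through a receptor whose signal is carried into the cell by the CD3 chains and CD247, with CD4 or CD8 as coreceptor and the kinases LCK and ZAP70 close behind. Cytotoxic T cells and NK cells kill through perforin and granzymes, B cells signal through CD79A and CD79B, and checkpoint receptors such as PD-1 (Pdcd1), TIM-3 (Havcr2) and TIGIT restrain activated T cells. The liver is rich in NK and other innate-like lymphocytes, and T cells gather in it during steatohepatitis and around liver tumors. In whole tissue, fewer cells of a type and less RNA per cell cannot be told apart.

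Lymphocyte genes were low in abundance in all groups. The member means ran from 0.0515 to 3.9 in control liver, from 0.213 to 3.04 in Scd2f/f TAL, and between 0.0455 and 3.7 in Scd2f/f;CC TAL, and 26 of the 33 genes stayed under 1 in every group. Means of 11 members in control liver and 5 in Scd2f/f;CC TAL were under 3 times the lowest mean of their group, against 0 in Scd2f/f TAL. Ratios that rest on these means are the least certain ones. Divided by the exon length in GENCODE M21, the level per kilobase in Scd2f/f TAL was highest for Zap70 (0.859), Cd274 (0.839), Gzma (0.695) and Nkg7 (0.613) and lowest for Pax5 (0.0367), Foxp3 (0.0483) and Cd247 (0.049). Zap70 was also first in control liver (1.3 per kilobase) and in Scd2f/f;CC TAL (1.24 per kilobase), and the order of neighbouring genes cannot be separated without the spread between mice.

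**Figure D1:**
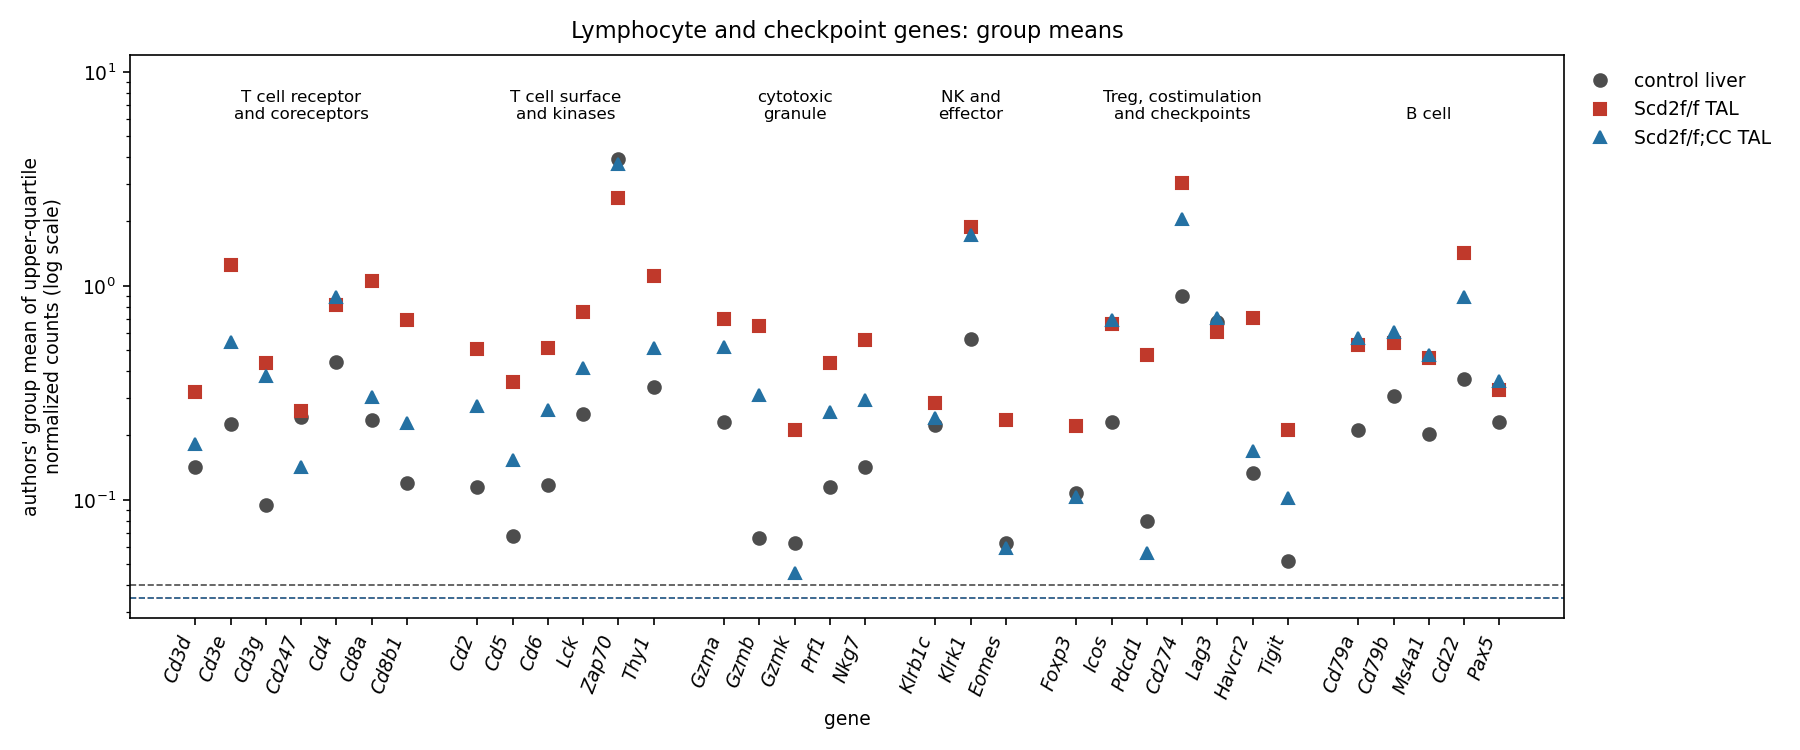
Group means of the 33 genes, on a log scale, with 1 point per group (circle, control liver; square, Scd2f/f TAL; triangle, Scd2f/f;CC TAL), ordered by role; dashed lines mark the lowest mean of each group in the table, and those of Scd2f/f TAL and Scd2f/f;CC TAL nearly coincide. Squares lie above circles for most genes, while the triangles of Pdcd1 (0.0566) and Gzmk (0.0455) lie close to the dashed lines.

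The first comparison, Scd2f/f TAL with control liver, asks how lymphocyte genes differ after DEN and WAD. Of the 33 members, 26 had a mean at least 2-fold higher in Scd2f/f TAL and 0 had one at least 2-fold lower. Over all 16755 genes, 9.37% were at least 2-fold higher and 4.69% at least 2-fold lower, and among the 7447 genes whose mean over the groups lies in the range of the members (0.107 to 3.39) 15.9% were at least 2-fold higher. By any amount, 31 members were higher, against 53.7% of all genes, and the exceptions were Zap70 and Lag3. The median log2 ratio was 1.76 for the members, which is 3.38-fold, and 0.045 for all genes. A gene absent from control liver may have entered the table only through a treated group, and the list was chosen with earlier results of these data known. The counts of this and the next comparison thus describe the genes that have values and are no test of the list.

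The second comparison, Scd2f/f;CC TAL with Scd2f/f TAL, asks how the same genes differ when Scd2 is ablated in Col1a1-expressing cells under the same regimen. In Scd2f/f;CC TAL, 12 member means were at least 2-fold lower and 0 were at least 2-fold higher, where 4.07% of all genes were at least 2-fold lower and 1.82% at least 2-fold higher. Among genes in the range of the members, 7.24% were at least 2-fold lower. By any amount 25 members were lower, against 49.6% of all genes, and the median ratio of the members was 0.548 (log2 ratio -0.87) where the median log2 ratio of all genes was 0. The 12 genes were Cd3e, Cd8a, Cd8b1, Cd5, Thy1, Gzmb, Gzmk, Eomes, Foxp3, Pdcd1, Havcr2 and Tigit, so they include T cell, cytotoxic and checkpoint genes and no B cell gene. With only 5 B cell genes analysed, a count of 0 is near the 4.07% of all genes. Both comparisons use the same Scd2f/f TAL mean, and a high or low value there moves both ratios in opposite directions. Set beside control liver, the mean in Scd2f/f;CC TAL was higher for 27 members, against 54.5% of all genes, at least 2-fold for 15, against 6.41% of all genes, and lower for 6.

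**Figure D2:**
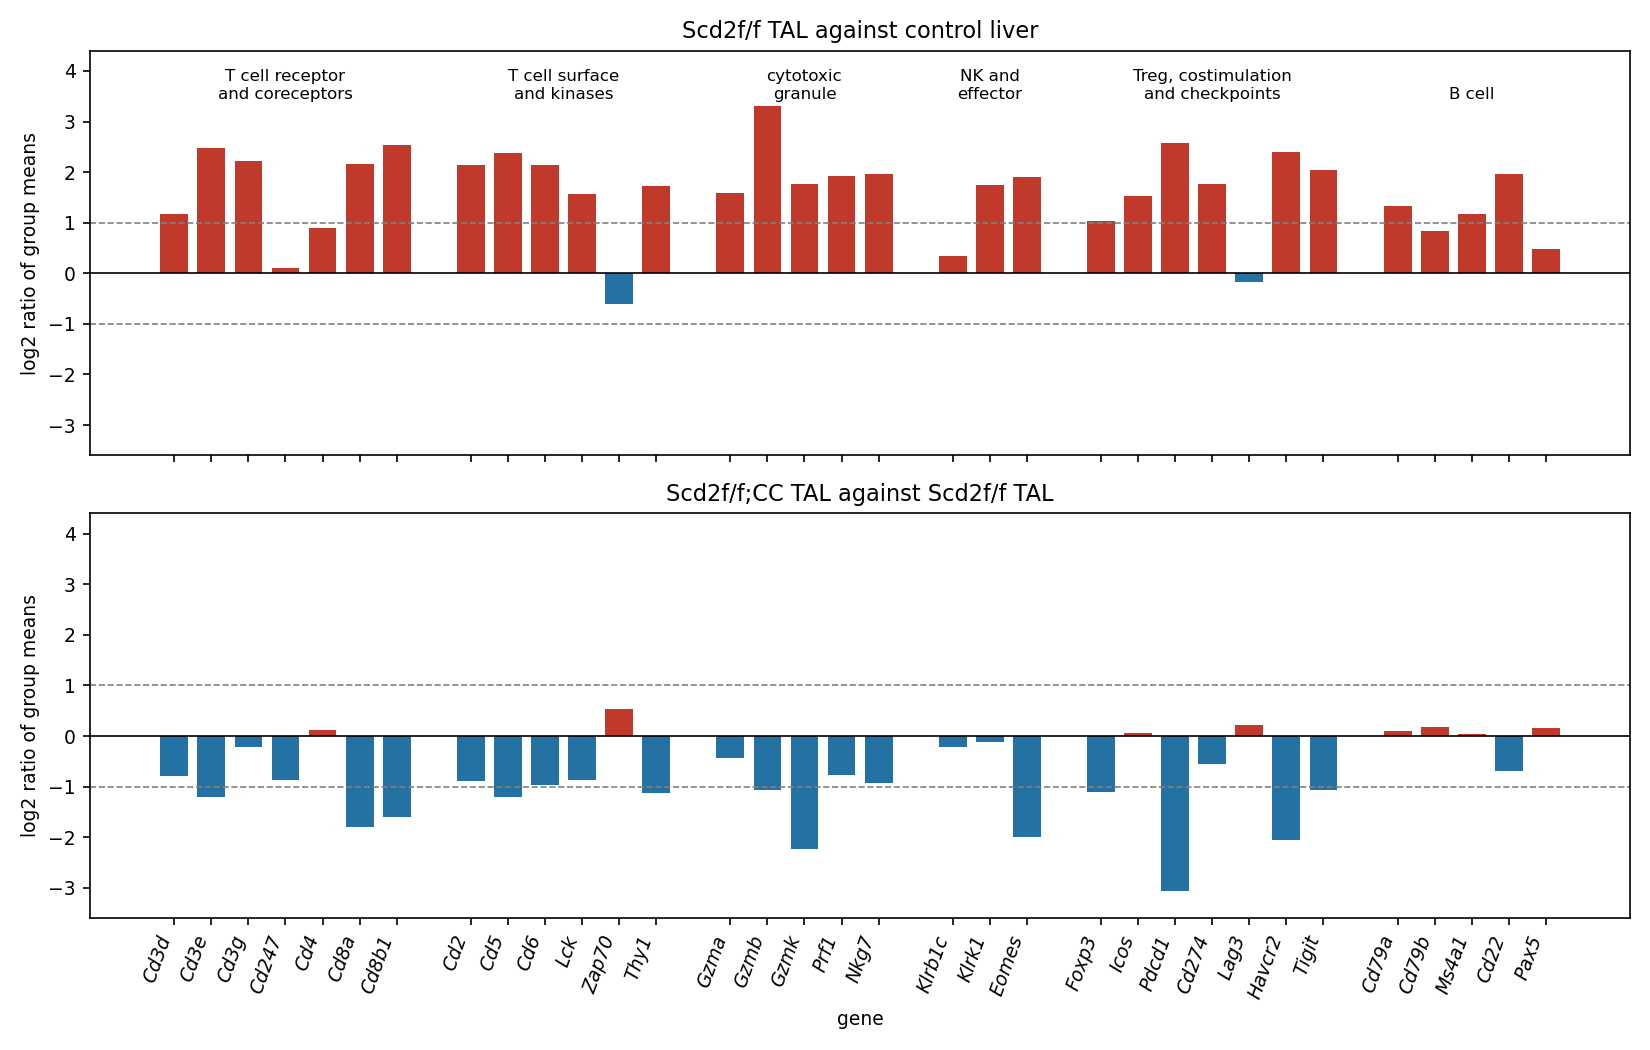
Log2 ratio of group means for each of the 33 genes, with Scd2f/f TAL over control liver above and the Scd2f/f;CC group over Scd2f/f TAL below; dashed lines mark 2-fold. Bars reach 3.30 for Gzmb in the upper panel and -3.07 for Pdcd1 in the lower, and 4 of the 5 B cell genes have short bars above 0 in the lower panel.

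Among the receptor genes, Cd3e had a mean of 0.226 in control liver, 1.25 in Scd2f/f TAL and, with Scd2 ablated (Scd2f/f;CC TAL), 0.545. It was 5.53-fold higher in Scd2f/f TAL than in control liver and 2.29-fold lower in Scd2f/f;CC TAL than in Scd2f/f TAL. Cd3g had means of 0.0944, 0.438 and 0.377 in the same order, so that of the CD3 chains it differed least between the treated groups (ratio 0.861). Cd3d had means of 0.142, 0.318 and 0.183 in the same order. These 3 genes are neighbours on chromosome 9, and the start sites of Cd3g and Cd3d lie 1355 bases apart on opposite strands. Cd247, the zeta chain, had means of 0.243, 0.261 and 0.142 and thus did not share the higher level of the CD3 genes in Scd2f/f TAL (ratio 1.07). Its exons share 3007 bases with those of Pou2f1 on the other strand, a gene with means of 9.2, 8.28 and 9.92. The paper does not state whether the libraries keep strand, so the values of Cd247 are uncertain.

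The coreceptors parted. Cd8a had means of 0.235, 1.05 and 0.302 in the 3 groups, and Cd8b1 means of 0.12, 0.694 and 0.228. Both genes lie on chromosome 6 of mm10 (Cd8a at 71373427 to 71379174, Cd8b1 at 71322788 to 71337495). Levels of both were more than 4-fold higher in Scd2f/f TAL (4.47-fold and 5.78-fold) and about 3-fold lower again in Scd2f/f;CC TAL (ratios of 0.288 and 0.329). Cd4 had means of 0.442, 0.817 and 0.883, 1.85-fold higher in Scd2f/f TAL and with a ratio of 1.08 between the treated groups. The quotient of Cd8a to Cd4 was 0.532, 1.29 and 0.342 in the 3 groups, and that of Cd8b1 to Cd4 was 0.271, 0.849 and 0.258. CD8A is also found on conventional dendritic cells. Of 11 dendritic cell markers 10 had a lower mean in Scd2f/f;CC TAL than in Scd2f/f TAL, beside 49.6% of all genes. The lower ones ran from Itgax (ratio 0.306) and Flt3 (0.503) through Xcr1 (0.581) and Clec9a (0.777) to Zbtb46 (0.988), and the other was Ccr9 (1.05). The part of dendritic cells in Cd8a was not tested. Myeloid cells can carry CD4, and the part of other cells in the Cd4 value was not tested.

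**Figure D3:**
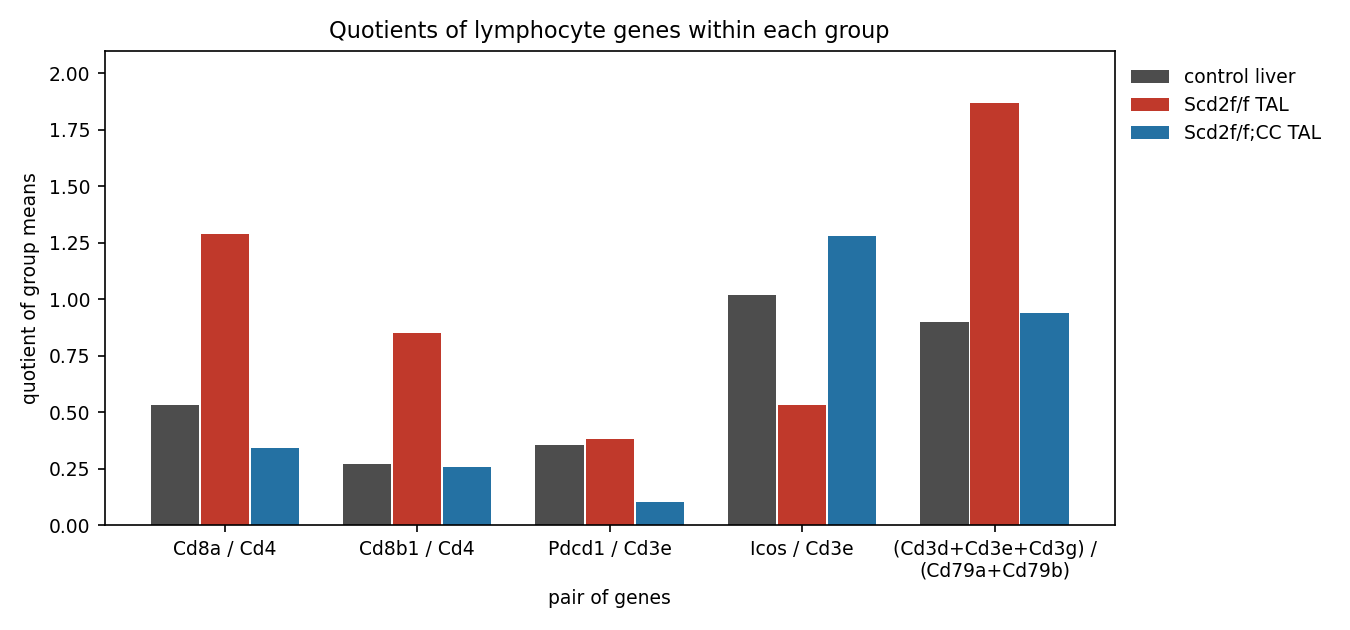
Quotients of group means within each group, with a bar for control liver, Scd2f/f TAL and Scd2f/f;CC TAL; the axis starts at 0 and there are no error bars because only group means were used. The quotients of Cd8a and Cd8b1 to Cd4 and of CD3 to CD79 genes are highest in Scd2f/f TAL (1.29, 0.849 and 1.87), and Icos to Cd3e is lowest there (0.533).

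Of the T cell surface genes, Cd2, Cd5 and Cd6, which tune receptor signaling and adhesion, had similar profiles. Their means were 0.115, 0.506 and 0.275 for Cd2, 0.0681, 0.355 and 0.153 for Cd5, and 0.117, 0.515 and 0.263 for Cd6, in control liver, Scd2f/f TAL and Scd2f/f;CC TAL. Cd5 and Cd6 are neighbours on chromosome 19, with ratios of 5.21 and 4.4 to control liver and of 0.431 and 0.511 between the treated groups. Lck had means of 0.252, 0.752 and 0.412, 2.98-fold higher in Scd2f/f TAL and 1.83-fold lower in Scd2f/f;CC TAL. Zap70, the kinase that docks on the phosphorylated receptor, had its lowest mean in Scd2f/f TAL, with 3.9, 2.57 and 3.7 in the 3 groups. Its level in control liver was 3.9 where that of Cd3e was 0.226, and its exons share no base with those of an annotated overlapping gene. Thy1 had means of 0.335, 1.11 and 0.511, a ratio of 0.46 between the treated groups. THY1 is also a surface protein of portal fibroblasts, and their part in Thy1 was not tested. Fbln2, used in the paper as a marker of portal fibroblasts, had means of 1.27, 1.45 and 0.761. The paper also reports that most Fbln2-positive cells in this model were Lrat-positive aHSC, so Fbln2 does not stand for portal fibroblasts alone.

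All 5 granule genes were more than 3-fold higher in Scd2f/f TAL than in control liver and lower in Scd2f/f;CC TAL than in Scd2f/f TAL. Gzmb, a granzyme of activated killer cells, had means of 0.066, 0.651 and 0.309 in the 3 groups, and its 9.86-fold higher level in Scd2f/f TAL was the widest of the members. The mean of Gzmb in control liver was only 1.65 times the lowest mean of that group. Prf1, the pore-forming perforin, had means of 0.115, 0.434 and 0.256, and Nkg7, a granule membrane protein, means of 0.143, 0.56 and 0.294. Gzma, a granzyme that NK cells carry at rest, had means of 0.231, 0.699 and 0.518 and, of the granule genes, the ratio nearest to 1 between the treated groups (0.741). Gzmk, a granzyme of memory-like CD8 T cells, had means of 0.063, 0.213 and 0.0455, 4.68-fold lower in Scd2f/f;CC TAL, where it stood at 1.3 times the lowest mean. The gene model of Gzmk used by the authors also spans Esm1 on the other strand, whose means were 0.22, 0.374 and 0.226. In GENCODE M21 the exons of Gzmk and Esm1 share no base. Gzma and Gzmk lie 70626 bases apart on chromosome 13, and their ratios between the treated groups were 0.741 and 0.214.

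The promoters of the granule genes are shown because 4 of the 5 hold the core of the RUNX motif, TGTGGT, within the 250 bases before the RefSeq start, whereas 14.2% of 27025 promoters of this length hold it on either strand. RUNX3 is known as a factor of cytotoxic lymphocytes. The sequences run 5′ to 3′ in the direction of the gene, from RefSeq on GRCm38.p6, and capitals mark TGTGGT or its reverse complement ACCACA.
Gzma chr13:113100982-113101231 (- strand): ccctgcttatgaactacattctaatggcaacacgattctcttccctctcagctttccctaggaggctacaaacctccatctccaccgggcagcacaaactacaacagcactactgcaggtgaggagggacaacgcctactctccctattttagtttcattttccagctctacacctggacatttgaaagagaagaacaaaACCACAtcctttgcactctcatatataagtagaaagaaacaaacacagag
Gzmb chr14:56262335-56262584 (- strand): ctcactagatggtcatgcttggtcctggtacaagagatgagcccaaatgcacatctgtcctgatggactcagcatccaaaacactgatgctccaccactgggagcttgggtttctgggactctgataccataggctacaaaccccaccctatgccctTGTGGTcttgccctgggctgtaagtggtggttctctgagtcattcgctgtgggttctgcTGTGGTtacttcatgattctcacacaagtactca
Nkg7 chr7:43436888-43437137 (+ strand): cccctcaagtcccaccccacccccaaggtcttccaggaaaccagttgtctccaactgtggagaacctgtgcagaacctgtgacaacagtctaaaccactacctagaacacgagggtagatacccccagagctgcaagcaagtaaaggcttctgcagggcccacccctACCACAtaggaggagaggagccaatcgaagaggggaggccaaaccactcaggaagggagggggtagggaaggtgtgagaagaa
Prf1 chr10:61297586-61297835 (+ strand): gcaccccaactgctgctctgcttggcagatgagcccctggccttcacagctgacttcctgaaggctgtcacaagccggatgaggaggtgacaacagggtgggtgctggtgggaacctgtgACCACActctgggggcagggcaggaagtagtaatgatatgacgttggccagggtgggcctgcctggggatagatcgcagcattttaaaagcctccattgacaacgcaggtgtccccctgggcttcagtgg
Gzmk chr13:113180966-113181215 (- strand): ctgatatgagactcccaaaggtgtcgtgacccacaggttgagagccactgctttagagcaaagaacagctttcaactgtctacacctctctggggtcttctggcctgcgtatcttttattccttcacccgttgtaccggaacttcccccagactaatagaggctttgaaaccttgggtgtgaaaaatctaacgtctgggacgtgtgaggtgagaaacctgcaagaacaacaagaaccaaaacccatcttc
The match lies 50 bases before the start in Gzma, 83 in Nkg7 and 130 in Prf1, Gzmb has 2 matches, and Gzmk has none in this window. A stretch just after the start was found in a GENCODE M21 transcript of the gene for Gzma and Nkg7. It was not found for Gzmb, Prf1 and Gzmk, so their starts were not borne out by this check. The window of Gzmk belongs to a RefSeq start that lies inside the longer gene model of the deposited table.

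RefSeq promoters were matched for 24 of the 33 members, and 9 of them held TGTGGT on either strand, the other 5 being Havcr2, Klrb1c, Klrk1, Lck and Tigit. None of the 5 promoters of receptor genes (Cd3d, Cd3e, Cd3g, Cd247, Cd8a) and none of the 3 of B cell genes (Cd22, Cd79a, Pax5) held it. Among so few promoters, a count of 0 is near the 14.2% of all promoters. Cd2, Cd4, Cd6, Cd8b1, Cd79b, Icos, Lag3, Ms4a1 and Thy1 had no entry. Of 8 motifs searched on both strands, the octamer ATGCAAAT was in 0 of the 24 promoters and in 1.61% of all promoters, and the ETS core GGAA in 22 of the 24 and in 93.4% of all. An IRF motif, GAAA followed by any 2 bases and GAAA again, was in the promoters of Eomes and Gzma and in 3.04% of all. CCGGAAGT, CAGCTG, CCCNNGGG and TATAAA were in 0, 1, 2 and 1 of the 24 and in 2.93%, 12.8%, 11.7% and 13.0% of all. GGAA is part of CCGGAAGT, and such matches describe letters only.

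NK and effector genes were few, since Klrd1, Ncr1 and Tbx21 were not analysed here. Klrb1c, which encodes NK1.1, had means of 0.223, 0.282 and 0.242 in the 3 groups, with ratios of 1.26 and 0.858. Another annotated gene, Gm44511, shares 413 exonic bases with Klrb1c on the same strand. Klrk1, the activating receptor NKG2D of NK and CD8 T cells, had means of 0.564, 1.89 and 1.73, so its 3.35-fold higher level in Scd2f/f TAL was nearly as high in Scd2f/f;CC TAL (ratio 0.915). Eomes, a transcription factor of NK and memory CD8 T cells, had means of 0.063, 0.235 and 0.0593 and stood within 2 times the lowest mean in both control liver (1.57 times) and Scd2f/f;CC TAL (1.7 times).

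Among checkpoint genes, Pdcd1 had means of 0.08, 0.475 and 0.0566 in the 3 groups. It was 5.94-fold higher in Scd2f/f TAL than in control liver and 8.39-fold lower in Scd2f/f;CC TAL than in Scd2f/f TAL, and 0.0716% of all genes had a lower ratio in the second comparison. Its mean was only 2.0 times the lowest of the group in control liver and 1.62 times in Scd2f/f;CC TAL, so both ratios and its rank are uncertain. A pseudocount of 1 brought its log2 ratio from -3.07 to -0.48. Pdcd1 lies on chromosome 1 of mm10, from 94038305 to 94052554 on the minus strand. Relative to Cd3e, Pdcd1 was at 0.354, 0.38 and 0.104 in the 3 groups. Havcr2 had means of 0.134, 0.704 and 0.169, 5.25-fold higher and then 4.17-fold lower. TIM-3 is also made by macrophages and dendritic cells. Of 20 macrophage markers 17 had a lower mean in Scd2f/f;CC TAL than in Scd2f/f TAL, beside 49.6% of all genes. Of these markers 4 were at least 2-fold lower, beside 4.07% of all genes. Those 4 were Gpnmb (ratio 0.071), Cx3cr1 (0.19), Trem2 (0.255) and Spp1 (0.328), beside 0.638 for Cd68 and 0.24 for Havcr2. The other 3 markers were higher, namely Clec4f (1.01), Timd4 (1.23) and Cd163 (1.53). Spp1 is also in the list of cholangiocyte markers. The part of such cells in Havcr2 was not tested. Tigit had means of 0.0515, 0.213 and 0.102, a ratio of 0.479 between the treated groups. It stood at 1.29 times the lowest mean in control liver and 2.92 times in Scd2f/f;CC TAL. Lag3 stood at 0.681, 0.608 and 0.706 and so showed no 2-fold difference in either comparison. It lies 16139 bases from Cd4 on chromosome 6, and neither gene was lower in Scd2f/f;CC TAL.

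Cd274, the ligand PD-L1 that many cell types can make, had means of 0.894, 3.04 and 2.06 in the 3 groups. Its ratio was 3.4 in the first comparison and 0.678 in the second, milder than the ratio of 0.119 of its receptor gene Pdcd1. Foxp3, the transcription factor of regulatory T cells, had means of 0.108, 0.221 and 0.103. Exons of Foxp3 share 590 bases with those of Ccdc22 on the other strand, whose means were 4.52, 6.51 and 6.13. They also share 853 bases with those of Flicr on the same strand, so the values of Foxp3 are uncertain. Icos, a costimulatory receptor of activated and follicular helper T cells, had means of 0.23, 0.666 and 0.695 and a ratio of 1.04 between the treated groups. Relative to Cd3e, Icos was at 1.02, 0.533 and 1.28 in the 3 groups.

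B cell genes were higher in Scd2f/f TAL than in control liver but, apart from Cd22, not lower in Scd2f/f;CC TAL. Cd79a and Cd79b, the signaling chains of the B cell receptor, had means of 0.211, 0.53 and 0.569 and of 0.304, 0.54 and 0.607. Ms4a1, which encodes CD20, had means of 0.204, 0.46 and 0.474, and Pax5, the transcription factor of B cell identity, means of 0.232, 0.325 and 0.361. The ratios of these 4 genes ran from 1.4 to 2.51 in the first comparison and from 1.03 to 1.12 in the second. Cd22, an inhibitory receptor of B cells, had means of 0.368, 1.43 and 0.885, a ratio of 3.89 and then of 0.619. The summed Cd3d, Cd3e and Cd3g over the summed Cd79a and Cd79b was 0.898, 1.87 and 0.94 in the 3 groups. Whether T and B cell genes differ in their response was not tested, since this needs values of single mice.

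Other genes of these lineages were counted from lists of known markers. Beside these counts, 9.37% of all genes were at least 2-fold higher in Scd2f/f TAL, and 4.07% were at least 2-fold lower in Scd2f/f;CC TAL. Of 36 further T cell genes 29 were analysed, 17 were at least 2-fold higher in Scd2f/f TAL, and 4 were at least 2-fold lower in Scd2f/f;CC TAL. These were Bcl11b (0.106, 0.812 and 0.258), a transcription factor of T cell identity, Sh2d2a (ratio 0.325), Il7r (0.443), and Trac (0.212, 0.801 and 0.365), the constant region of the receptor alpha chain. Their median log2 ratio was 1.29 in the first comparison and -0.43 in the second. Among those whose mean over the groups reached 1, Themis, a regulator of receptor signaling, had the highest ratio to control liver (1.06, 12 and 9.65) and Tcf7, a factor of naive and memory-like T cells, the lowest (3.11, 1.71 and 1.59). Both stood above Cd3e (0.226, 1.25 and 0.545) in every group, and the part of other cells in their values was not tested. Of 28 further NK and innate-like genes 11 were analysed, with a median log2 ratio of 0.60 and then of -0.40. There, 3 were at least 2-fold higher in Scd2f/f TAL (Ccl5, Cd7 and Fasl, the last listed at the lowest mean of 0.04 in control liver), 1 was at least 2-fold lower (S1pr5, ratio 0.483), and Ccl5, a chemokine of activated killer cells, was 3.22-fold lower in Scd2f/f;CC TAL (0.35, 1.92 and 0.596). Zbtb16, the factor of innate-like T cells, which other cells of the liver also express, had means of 19.4, 10.1 and 6.03, the lowest ratio of this list between the treated groups among genes whose mean reached 1 (0.597), where S1pr5 had the highest (1.3) and Id2 the highest ratio to control liver (1.52).

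Of 33 further B and plasma cell genes 21 were analysed, 9 were at least 2-fold higher in Scd2f/f TAL, and 1 was at least 2-fold lower in Scd2f/f;CC TAL (Cd72, with means of 0.998, 2.88 and 0.878) against 1 at least 2-fold higher (Iglc2, ratio 2.85). Their median log2 ratio was 0.68 in the first comparison and 0.01 in the second. Where the mean reached 1, Ciita had the highest ratio to control liver (4.19) and Jchain of plasma cells the lowest (0.906), and between the treated groups Cd72 had the lowest and Ighm the highest (1.27). Of 32 further costimulatory and checkpoint genes 22 were analysed, 8 were at least 2-fold higher in Scd2f/f TAL and 1 at least 2-fold lower in Scd2f/f;CC TAL (Cd200, ratio 0.454). In this list Cd48 had the highest ratio to control liver (5.8) and Cd47 the lowest (0.949), and between the treated groups Cd276 had the lowest (0.521) and Nt5e the highest (1.39), for genes whose mean reached 1. The median log2 ratios were 0.74 and -0.34. Of all genes, 9.37% were at least 2-fold higher in Scd2f/f TAL. In Scd2f/f;CC TAL 4.07% were at least 2-fold lower and 1.82% at least 2-fold higher. The counts of 1 lower gene in 21 and 1 in 22 are thus near the share of all genes.

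Markers of other leukocytes differed between the groups too. The counts below stand beside 9.37% of all genes at least 2-fold higher in the first comparison and 4.07% at least 2-fold lower in the second. The summed level of 16 pan-leukocyte genes was 30.8, 129 and 94.3 in the 3 groups, with all 16 at least 2-fold higher in the first comparison and 0 at least 2-fold lower in the second. The summed level of 20 macrophage markers was 236, 662 and 512, with 17 at least 2-fold higher and then 4 at least 2-fold lower, that of 11 dendritic cell markers 37.2, 75.5 and 61.2, with 6 and then 1, and that of 7 neutrophil markers 1.42, 5.65 and 4.58, with 7 and then 1. Summed hepatic stellate cell and fibroblast markers (14 genes) were at 242, 395 and 242, with 7 at least 2-fold lower in Scd2f/f;CC TAL. Summed cholangiocyte markers (8 genes) were at 65.4, 61.4 and 26, with 6 at least 2-fold lower, endothelial markers (12 genes) at 176, 226 and 228, with 0, and hepatocyte markers (10 genes) at 37100, 34500 and 38900, with 0. Spp1, with means of 52.3, 45.1 and 14.8, is counted in both the macrophage and the cholangiocyte list. When the 3 groups were scaled to the same summed pan-leukocyte level, 1 of the 33 members was at least 2-fold higher in Scd2f/f TAL and 8 were at least 2-fold lower, and in the second comparison 6 were at least 2-fold lower. In the first comparison this scaling subtracts 2.063 from the log2 ratio of every gene. The median of all genes, 0.0448 unscaled, thus also comes to lie more than 2-fold lower. In the second comparison -0.451 is subtracted. The share of all genes past 2-fold under the scaling was not counted. Per 100 units of the summed pan-leukocyte level, the CD3 genes stood at 1.5, 1.56 and 1.17 and the CD79 genes at 1.67, 0.83 and 1.25. The summed pan-leukocyte level was 4.18-fold higher in Scd2f/f TAL than in control liver, beside a median of 3.38-fold for the members, and the part of leukocyte content in the member ratios was not tested. Among marker genes whose mean reached 1, the lowest and highest ratios to control liver were those of Arhgdib (2.36) and Cd52 (6.83) for pan-leukocyte genes, Cd163 (0.728) and Gpnmb (95.8) for macrophages, Zbtb46 (1.28) and Itgax (15.6) for dendritic cells, and Csf3r (3.06) and S100a9 (5.46) for neutrophils. They were those of Des (0.774) and Col1a1 (4.18) for stellate cells and fibroblasts, Vwf (0.989) and Lyve1 (2.54) for endothelium, Spp1 (0.862) and Sox9 (1.68) for cholangiocytes, and Tat (0.363) and Tdo2 (1.23) for hepatocytes. Between the treated groups they were those of Cd52 (0.557) and Cytip (0.94), Gpnmb (0.071) and Cd163 (1.53), Itgax (0.306) and Zbtb46 (0.988), Csf3r (0.801) and S100a9 (0.82), Col1a1 (0.23) and Ecm1 (1.02), Lyve1 (0.521) and Kdr (1.15), and, for hepatocytes, Hnf4a (0.93) and Tat (1.69), in the same order of lists. The lowest ratio of the cholangiocyte markers between the treated groups was that of Epcam (0.275).

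**Figure D4:**
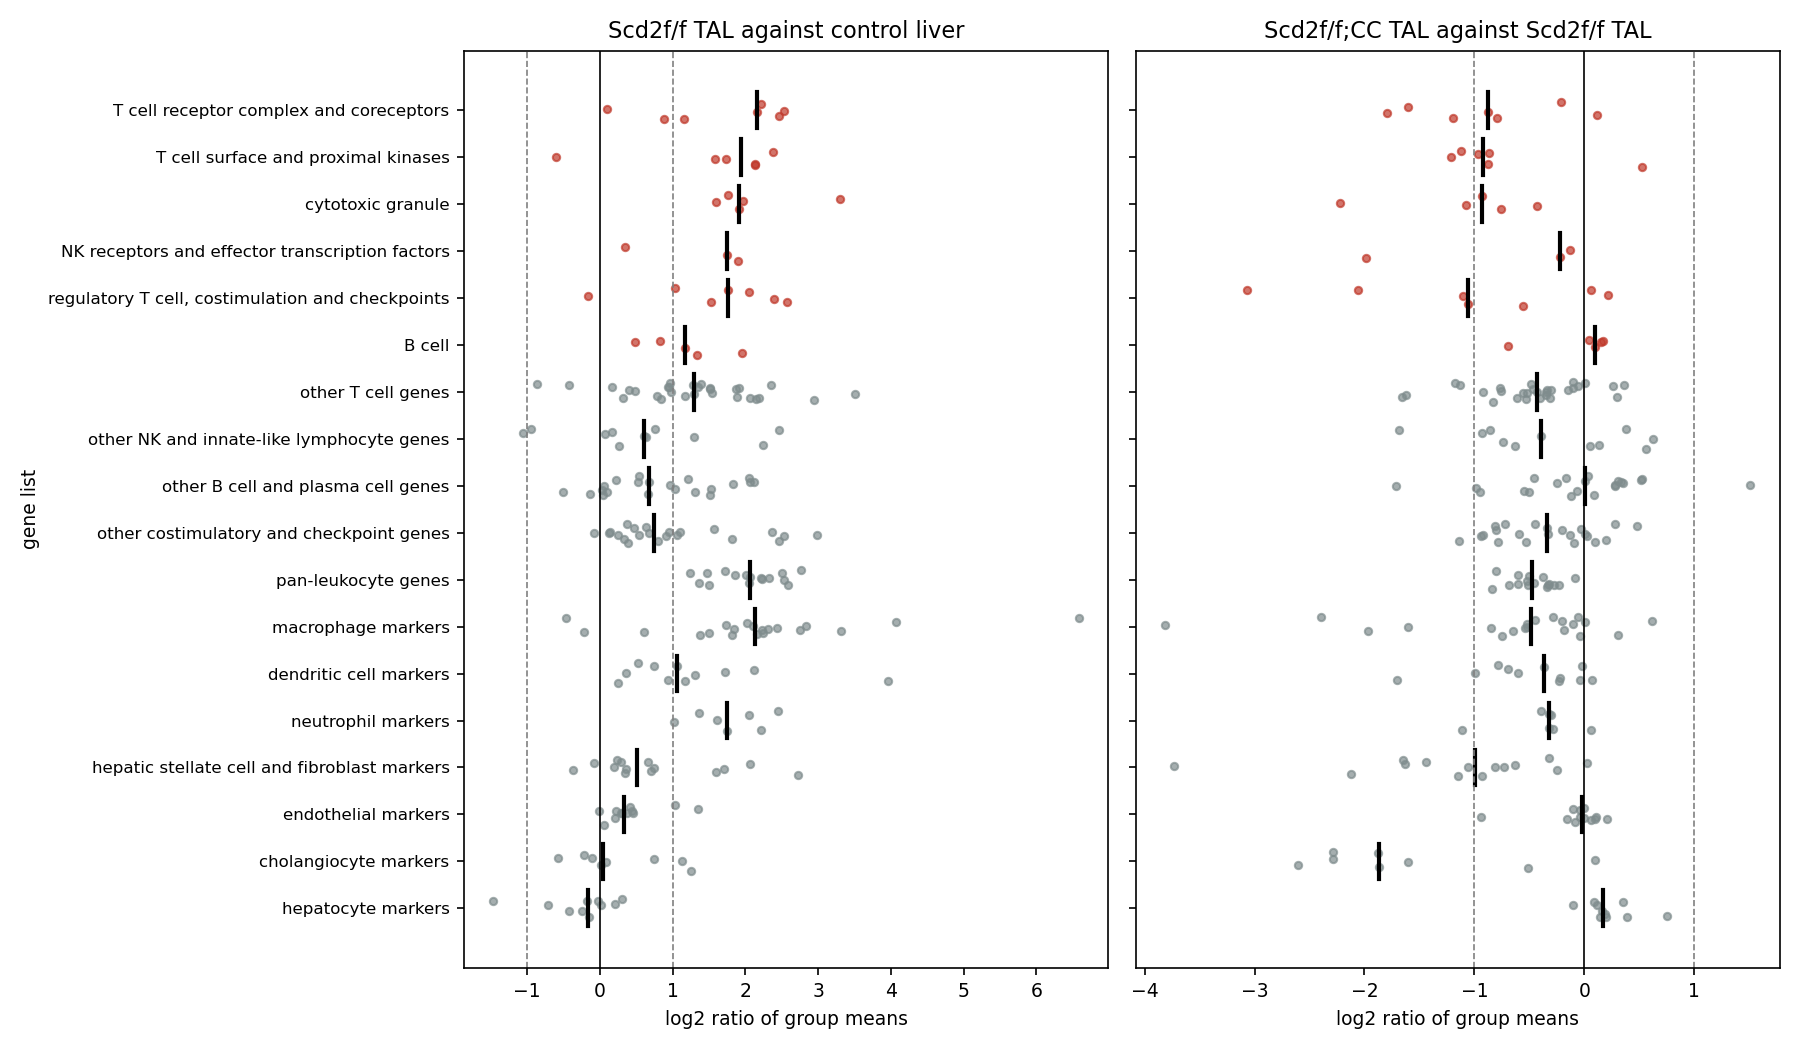
Log2 ratio of group means for every analysed gene (points) of the 6 groups of members (red) and of 12 further lists (grey), with the median of each list as a black bar, for both comparisons; dashed lines mark 2-fold, and points are spread vertically for legibility. Medians of pan-leukocyte (2.06) and macrophage (2.13) lists lie as far right as those of the T cell groups in the left panel, and the B cell group is the only group of members with a median above 0 in the right panel (0.10).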

How the data were processed

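Polyadenylated RNA was sequenced by the authors from 9 livers, 3 per group (Illumina TruSeq). Whether the libraries keep strand is not stated in the paper. The submitters' processing notes name STAR 2.6.1, Partek 6 and mm10. Gene-level counts were made by the authors with Partek's E/M quantification on a Gencode annotation and scaled by upper-quartile normalization, followed by Partek Gene Specific Analysis. The deposited signal is the least-squares mean of each group, in 3 significant digits; a minimum of expression is not given in the sources used here. The table has 18 columns. Those with the p-values, FDR, ratios and fold changes of the authors' comparisons were not used.

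Ratios and log2 ratios were computed from the means without a pseudocount, and at least 2-fold was the limit for a difference. No p-value was computed, because only group means were used; for the same reason the planned look at the highest single library of each member was not made. The counting step was tested on simulated data. Members and lists were chosen with earlier results of these data known. All 33 members analysed are named, and in each further list the genes with the lowest and highest ratio where the mean over the groups reached 1, apart from some that are not reported here. Bcl11b, Sh2d2a, Il7r, Trac, Ccl5, Fasl, Cd7, Iglc2, Cd200, Flt3, Xcr1, Clec9a, Ccr9, Cx3cr1, Trem2, Clec4f, Timd4, Fbln2, Cd68, genes that overlap members and the quotients were chosen after their values were seen. All 33 matched a GENCODE M21 gene (GRCm38) of the same name, chromosome and strand, from which exon lengths were taken. The groups of members and the 12 further lists were counted beside all genes. Alternatives were other limits, pseudocounts of 0.1 and 1, filters, centring and scaling to leukocyte genes. Python 3.11.15, NumPy 2.4.6, pandas 2.3.3 and Matplotlib 3.10.9 were used.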

Additional observations from a re-analysis of the deposited data

How the results depend on the processing

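Most member means are low. The 26 members at least 2-fold higher in Scd2f/f TAL than in control liver became 22 with a pseudocount of 0.1, 1 with a pseudocount of 1, and 2 of the 3 genes whose mean reached 1. With both means at least 3 times the lowest of their group, a filter chosen after seeing the data, 15 of 22 genes were at least 2-fold higher. The median log2 ratio of 1.76 became 1.28 and 0.39 with the pseudocounts, 1.56 with that filter and -0.31 when scaled to equal pan-leukocyte genes. Under this scaling 1 member was at least 2-fold higher and 8 at least 2-fold lower. The scaling subtracts 2.063 from every log2 ratio, so the median of all genes (0.0448 unscaled) also comes to lie more than 2-fold lower. Without the scaling, a limit of 1.5-fold gave 1 member lower. The causes of these shifts were not tested. The 12 members at least 2-fold lower in Scd2f/f;CC TAL than in Scd2f/f TAL became 7 with a pseudocount of 0.1, 0 with 1, 0 of those 3 genes, 7 of 28 with the filter chosen after seeing the data and 6 under the scaling. Limits of 1.5-fold and 3-fold, without the scaling, gave 20 and 6. The share of all genes was not counted under the pseudocounts, the other limits, the scaling or the filter chosen after seeing the data. The median log2 ratio of -0.87 became -0.63 and -0.19 with the pseudocounts, -0.13 for the 3 genes, -0.73 with the filter and -0.42 under the scaling. A median was taken as moved when it shifted by over 0.1. Subtracting the median log2 ratio of genes whose mean reached 1 left the 4 counts as they were. Leaving out single mice was not possible with group means. No paired analysis was possible because the deposited columns are group means and carry no replicate numbers.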

Other observations

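Antigen receptor genes, chosen after their values were seen, were read beside the members. In control liver, Scd2f/f TAL and Scd2f/f;CC TAL, the T cell receptor constant genes had means of 0.212, 0.801 and 0.365 for Trac, 0.266, 1.18 and 0.625 for Trbc2 and 0.21, 0.414 and 0.327 for Trbc1. The 2 beta constant genes are near-identical copies, so reads can be split between them. The immunoglobulin genes had means of 2.74, 2.84 and 3.62 for Ighm, 0.249, 0.579 and 0.827 for Ighd, and 6.55, 9.53 and 8 for Igkc. The ratios between the treated groups were 0.456 for Trac, 0.53 for Trbc2, 0.79 for Trbc1, 0.839 for Igkc, 1.27 for Ighm and 1.43 for Ighd.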
